A study of Mus musculus with 20 samples.

Results

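Expression in the aorta was compared between mice exposed to 50, 75, 100 or 125 cGy of total-body radiation (middle doses, 8 libraries) and mice exposed to 0, 5 or 10 cGy (low doses, 6 libraries), which are 14 of the 20 libraries of the series. All animals were male wildtype C57BL/6 mice of 10 to 12 weeks, irradiated on the same day with high energy protons or with gamma rays and killed 4 hours later. There was 1 mouse per dose and radiation type, so the 8 middle libraries (Proton50, Proton75, Proton100, Proton125 and their gamma counterparts) and the 6 low libraries are different doses in 1 group, not repeats of 1 dose. The low group held both unirradiated mice and mice given 5 or 10 cGy. The whole aorta was sequenced, and in such bulk tissue fewer cells of a type and less RNA per cell cannot be told apart. Libraries at 25 cGy (2) and at 150 and 200 cGy (4) stood outside the comparison, the last 4 because their counts followed the GC content of genes differently from the others.

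Ionising radiation breaks DNA, and the broken ends activate the ATM and ATR kinases, which stabilise the transcription factor p53. Stabilised p53 raises the transcription of genes that halt the cell cycle, trigger apoptosis, adjust metabolism and, through Mdm2, degrade p53 itself. In the arterial wall most RNA comes from contractile smooth muscle cells, which seldom divide.

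The labelled tissue carried its markers in all 14 libraries. Acta2, the smooth muscle actin, was listed at 12520 to 27490 scaled counts (CPM, counts relative to a common library total) in the middle libraries and at 20120 to 26330 CPM in the low libraries. Total counts were near 6057000 in every library because the authors resampled reads to a common depth, and 3 counts, the smallest level taken as shown at this depth, corresponded to 0.495 CPM. The Pearson correlation across genes between GC content and a library's deviation from the mean log2 level of all libraries ran from 0.0235 to 0.283 in the low libraries, from -0.0180 to 0.200 in the middle libraries and from -0.400 to -0.348 at 150 and 200 cGy. Proton75 and Gamma100 stood apart from the other 12 libraries. Their summed white fat markers were 24880 and 8502 CPM against 2104 to 7462 CPM elsewhere, and their summed smooth muscle markers were 40170 and 57840 CPM against 66260 to 82550 CPM. In Proton75 the striated muscle markers also summed to 3313 CPM, against at most 83.8 CPM in the other 13 libraries. Both libraries belong to the middle group, and the main counts are given without them at the end.

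**Figure D1:**
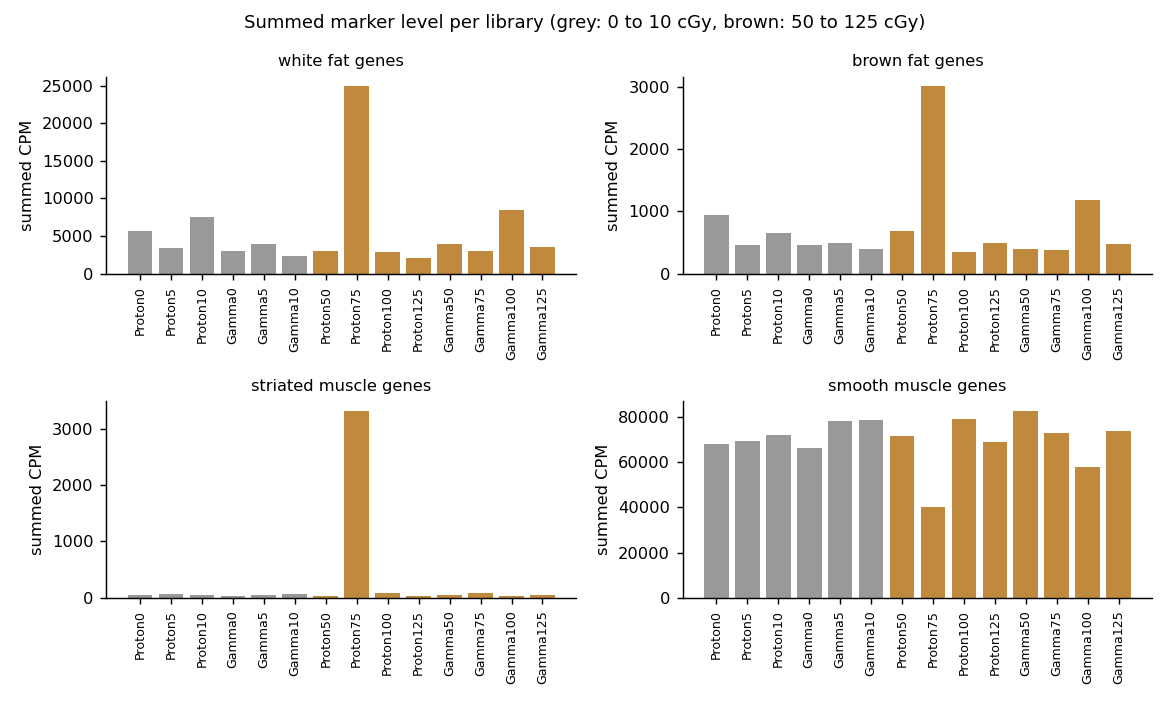
Summed CPM of white fat, brown fat, striated muscle and smooth muscle marker genes (vertical axes, from 0) in each of the 14 libraries (horizontal axes), grey bars for 0 to 10 cGy and brown bars for 50 to 125 cGy. Proton75 and Gamma100 have the highest white fat and brown fat sums and the lowest smooth muscle sums, and Proton75 alone has a high striated muscle sum.

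Of 13149 genes whose counts averaged 5 or more over the 14 libraries, 41 (0.312% of those tested) were higher at 50 to 125 cGy and 22 (0.167%) were lower, at an adjusted p below 0.1 in edgeR's quasi-likelihood test with radiation type as a covariate and Benjamini-Hochberg adjustment. The rises were larger than the falls. The median log2 difference was 0.76 among the higher genes, with 14 of 41 above 1, and -0.44 among the lower genes, with 1 of 22 beyond -1, against 0.02 over all genes tested. At an unadjusted p under 0.05 the numbers were 624 higher and 626 lower, or 1250 of the 13149 genes tested. The counts of list members at that p given below are to be read against this total. DESeq2 called 58 higher and 83 lower genes, among them 40 of the 41 and all 22. With 1 library left out at a time the number of higher genes was lowest without Gamma5 or Gamma10 (21 each), was 23 without Proton5 or Proton10 and 25 without Gamma100, and lay between 29 and 47 without each of the other 9.

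**Figure D2:**
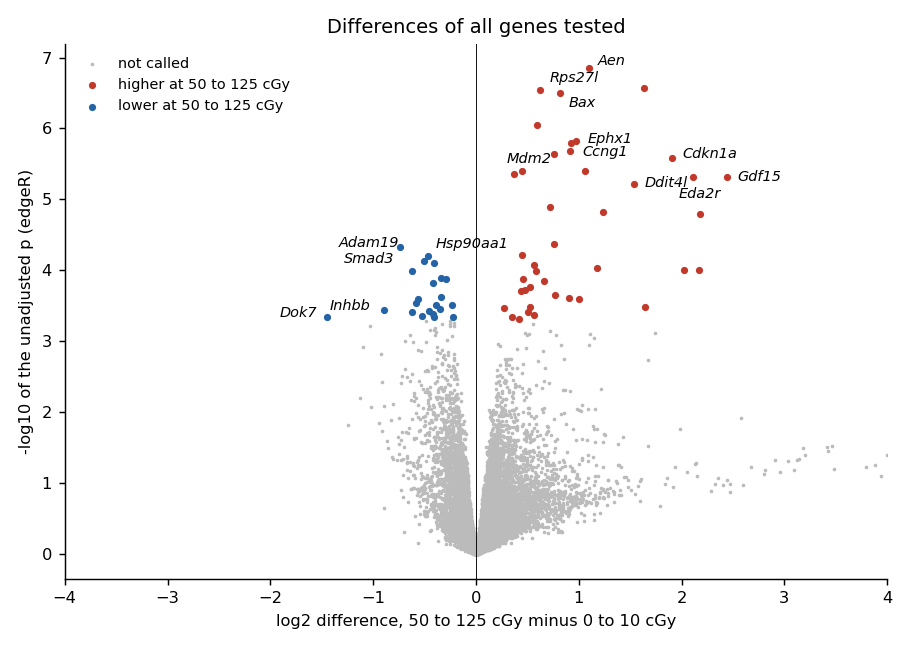
Log2 difference of each gene tested, middle minus low doses (horizontal axis, cut at 4, which leaves out 19 uncalled genes), against -log10 of its unadjusted p in edgeR (vertical axis), with the 41 higher genes in red and the 22 lower genes in blue. The genes with the smallest p lie on the higher side, led by Aen, 9030617O03Rik, Rps27l and Bax.

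The largest group among the higher genes was the p53 targets. Across 5 lists of such targets 58 genes were tested, of which 16 rose and none fell. Of all genes tested 0.312% were called higher, the share against which the rises per list below are to be read. The median log2 difference of the 58 was 0.28, against 0.02 over all genes tested. Of the 58, 47 lay above 0, against 55.6% of all genes tested. Part of these lists overlaps with the genes that the study found responsive to both radiation types in these same mice, which makes that part no independent evidence. The other members were also chosen with earlier results of these data known, so they are not independent evidence either. Without the genes of the study's list 44 remained, of which 3 rose (Ei24, Sesn2 and Abhd4), with a median of 0.19 and 33 of 44 above 0. Members are described by role below.

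A match to the 10-base motif of p53, which binds DNA as a pair of such decamers, stood in the RefSeq promoter window (250 bases before to 50 bases after an annotated start) of 12 of the 34 higher genes that had one, or 35.3%. Of the 9239 tested genes with a window, matched by symbol, 8.22% held a match, and among the lower genes 1 of 17 did (Hsph1). The motif reads the same on both strands, and a match is a description of the sequence, not evidence of binding. For 7 of the higher genes, those with a match before the first start listed apart from the scarce Celf5, the 70 bases around it are shown 5′ to 3′ on the gene's strand (GRCm38.p6), with the matching decamers in capitals.
Cdkn1a (chr17:29090884-29090953, plus strand): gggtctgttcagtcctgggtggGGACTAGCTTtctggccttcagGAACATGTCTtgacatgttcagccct
Mdm2 (chr10:117710904-117710973, minus strand): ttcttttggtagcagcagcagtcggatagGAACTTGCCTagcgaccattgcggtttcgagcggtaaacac
Ccng1 (chr11:40755432-40755501, minus strand): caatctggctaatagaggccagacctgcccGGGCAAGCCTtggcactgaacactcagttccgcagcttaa
Bax (chr7:45467059-45467128, minus strand): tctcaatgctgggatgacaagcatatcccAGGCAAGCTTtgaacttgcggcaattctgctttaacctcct
Ei24 (chr9:36797335-36797404, minus strand): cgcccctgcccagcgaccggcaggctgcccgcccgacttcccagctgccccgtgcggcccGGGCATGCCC
Ddit4l (chr3:137623552-137623621, plus strand): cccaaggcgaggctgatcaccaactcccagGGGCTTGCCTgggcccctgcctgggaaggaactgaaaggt
Exoc4 (chr6:33248892-33248961, plus strand): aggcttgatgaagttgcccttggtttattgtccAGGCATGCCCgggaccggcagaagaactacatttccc

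Cell cycle and checkpoint targets gave 4 rises among 10 genes tested, with a median log2 difference of 0.50. Cdkn1a (chr17:29227924-29237667, plus strand, mm9), which encodes the cyclin-dependent kinase inhibitor p21 and carries 2 of the decamers printed above, was listed at 44.7 CPM at the lowest, 74.1 at the median and 94.3 at the highest of the low libraries, and at 169, 281 and 393 CPM in the middle libraries. Every middle library lay above every low library, and the lowest 2 of the middle libraries were the pair at 50 cGy. The means were 72.2 ± 21.0 CPM (SD, n = 6) and 273 ± 79.6 CPM (SD, n = 8), a 3.75-fold rise (log2 1.91 ± 0.24 SE, adjusted p = 0.003446 in edgeR). Ccng1, cyclin G1, ranged from 109 to 134 CPM in the low group and from 168 to 302 CPM in the middle group, and rose by 0.93 on the log2 scale. Sesn2, a stress-induced inhibitor of the growth kinase complex mTORC1, rose by 1.24, from a median of 7.62 to one of 16.9 CPM. Gtse1, a microtubule-bound regulator of p53 in dividing cells, was scarce at 0.171 to 1.84 CPM in the low libraries, in part under the 3 counts taken as shown, and stood at 3.24 to 6.78 CPM in the middle libraries (log2 2.18 ± 0.34 SE). None of these 4 genes had overlapping groups. Btg2, an antiproliferative cofactor of mRNA deadenylation, had a log2 difference of 0.50 ± 0.12 SE and missed the threshold (adjusted p = 0.1247), with 6 of 8 middle libraries above all low libraries. It passed without Proton75 and Gamma100 (adjusted p = 0.02887).

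Among apoptosis and death receptor targets 4 of 10 genes rose, with a median log2 difference of 0.46. Aen (chr7:86040740-86056095, plus strand, mm9), an exonuclease that promotes apoptosis, had the smallest p of all genes. Its low libraries lay at 21.7 to 29.2 CPM with a median of 27.0, and its middle libraries at 41.1 to 70.4 CPM with a median of 57.1. The groups were well apart, and the rise was 2.14-fold (log2 1.10 ± 0.11 SE, adjusted p = 0.001031). Bax, the protein that opens the outer mitochondrial membrane in apoptosis, was at 26.7 to 36.0 CPM in the low and 45.8 to 64.9 CPM in the middle group, a rise of 0.82 on the log2 scale. Ei24, a membrane protein of the endoplasmic reticulum first known as a p53-induced gene, rose by 0.59, from a median of 82.7 to one of 117 CPM. Eda2r, the receptor of the tumour necrosis factor family for ectodysplasin A2, had the largest change of the 4 at 0.852 to 4.13 CPM against 7.85 to 19.3 CPM (log2 2.11 ± 0.29 SE). The same list held genes with a difference near 0. Fas, the classical death receptor, had means of 80.3 ± 10.4 CPM (SD, n = 6) and 80.4 ± 12.95 CPM (SD, n = 8), and Perp, a plasma membrane protein of p53-dependent apoptosis, had 134 ± 11.2 and 134 ± 28.5 CPM. Bbc3, which encodes the BH3-only protein PUMA, had a log2 difference of 0.64 ± 0.19 SE and did not pass (adjusted p = 0.2929).

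Feedback regulators of p53 gave 3 rises in 8 genes, with a median of 0.26. Mdm2 (chr10:117125944-117147814, minus strand, mm9), the ubiquitin ligase that degrades p53, ran from 54.9 to 66.0 CPM in the low and from 72.2 to 83.5 CPM in the middle group. The change was small but the libraries of each group lay close together, so the groups did not overlap (log2 0.37 ± 0.05 SE, adjusted p = 0.004214). Trp53inp1, a nuclear cofactor of p53, rose by 1.0 ± 0.20 SE on the log2 scale with a wide middle range of 109 to 291 CPM against 69.0 to 117 CPM, and its call was lost without Proton75 and Gamma100 (adjusted p = 0.1361), without the value moving down (log2 1.07). Ccng1, described above, is the other member called. Transcripts of Trp53 itself were at 49.3 ± 2.45 CPM (SD, n = 6) in the low and 48.9 ± 3.90 CPM (SD, n = 8) in the middle group. Ppm1d, the phosphatase that reverses p53 phosphorylation, had 0.23 ± 0.10 SE and Mdm4, the partner of Mdm2, had -0.05 ± 0.11 SE, both with an adjusted p above the threshold.

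Targets in metabolism, stress and signalling gave 7 rises in 24 genes, with a median of 0.53. Ephx1, the microsomal epoxide hydrolase, was the most abundant of them, with 130 to 191 CPM in the low group and 231 to 385 CPM in the middle group (log2 0.98 ± 0.12 SE, adjusted p = 0.003047). Dcxr, a reductase of dicarbonyls and xylulose, rose by 1.06 and Slc19a2, a thiamine transporter, by 0.91, each with groups that did not overlap. Ddit4l, an inhibitor of mTORC1 signalling, had 1.53 to 4.41 CPM against 6.32 to 12.9 CPM, or 1.54 on the log2 scale. Abhd4, a lipid hydrolase, went from a median of 58.4 to one of 84.1 CPM (log2 0.56), a call lost without Proton75 and Gamma100 (adjusted p = 0.1029). Ano3, of the anoctamin membrane protein family, was at 0.163 to 0.495 CPM in the low libraries, none above the level of 3 counts, and its fitted log2 difference of 2.17 ± 0.40 SE rests on a mean count of 6.36. Phlda3, an inhibitor of AKT signalling, reached 248 CPM in 1 middle library against a middle median of 87.9 CPM. It had a log2 difference of 0.91 ± 0.27 SE with an adjusted p of 0.2973, and passed at a lower value of 0.49 without Proton75 and Gamma100 (adjusted p = 0.05026).

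The p53 targets of DNA repair and nucleotide supply gave 0 calls in 10 genes in edgeR. At an unadjusted p under 0.05 there were 2 of the 10, and 1250 of all 13149 genes tested. The median of the list, 0.04, was close to that of all genes, 0.02. Ddb2 and Xpc, which recognise damage in nucleotide excision repair, had 0.16 ± 0.11 SE and -0.17 ± 0.09 SE. Pcna, the replication clamp, had -0.10 ± 0.06 SE, and Rrm2b, the p53-induced subunit of ribonucleotide reductase, had -0.07 ± 0.06 SE. Mgmt, which removes alkyl groups from guanine, had the largest value of the list at 1.15 ± 0.27 SE, with 6 of 8 middle libraries above all low libraries, and did not pass (adjusted p = 0.1313). A wider list of damage sensing and repair genes gave 0 calls in 20 with 4 under an unadjusted p of 0.05 and a median of 0.09.

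**Figure D3:**
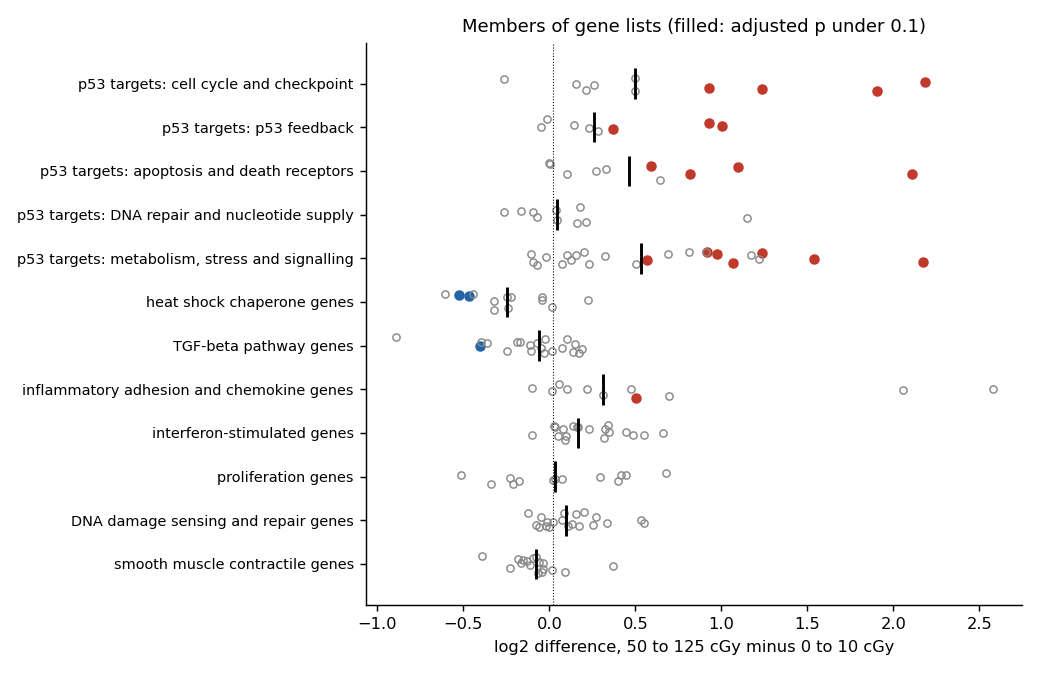
Log2 difference, middle minus low doses (horizontal axis), of each tested member of 12 gene lists (rows), with filled red or blue points for genes past an adjusted p of 0.1, open points for the others, a black bar at each list's median and a dotted line at the median of all genes, 0.02. The filled red points lie in 4 of the 5 p53 lists and in the adhesion and chemokine list, and none in the DNA repair and nucleotide supply list.

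Of the 41 higher genes, 25 were on no p53 list, a count that depends on how the lists were drawn. Whether p53 acts on these 25 was not tested. Among them, Rps27l, Exoc4 and Celf5 had a match to the p53 decamer in a promoter window. Rps27l, a ribosomal protein relative of S27, was among the first by p, with low libraries at 48.4 to 54.9 CPM and middle libraries at 69.5 to 90.2 CPM, and rose by 0.63 ± 0.07 SE (adjusted p = 0.001031). Exoc4, a subunit of the exocyst that tethers secretory vesicles, rose by 0.76, from 50.6 to 58.4 CPM in the low libraries to 70.4 to 113 CPM in the middle libraries. Commd3, of the COMM domain family that serves endosomal sorting, rose by 0.45. Like 9030617O03Rik below, Commd3 is among the genes the study found responsive to both radiation types in these same mice. Rps27l, Exoc4 and Commd3 all had groups that did not overlap. So did Dnm3, a dynamin of membrane fission, which rose by 1.18 from low levels of 1.36 to 3.01 CPM. Gdf15, a secreted stress cytokine of the TGF-beta superfamily, was named after its values were seen because it had the largest rise of all called genes. It was at 0.170 to 1.51 CPM in the low group and at 2.73 to 5.35 CPM in the middle group (log2 2.44 ± 0.34 SE, adjusted p = 0.004214), on a mean count of 16.4. Nfkbia, the NF-kappaB inhibitor that glucocorticoids and inflammatory signals both induce, rose by 0.50 ± 0.11 SE with overlapping groups, 31.0 to 45.7 against 41.5 to 72.9 CPM, and its adjusted p went from 0.09337 to 0.1029 without Proton75 and Gamma100. It was the only call in the glucocorticoid list (1 of 16) and in the adhesion and chemokine list (1 of 11). A further gene among the first by p, 9030617O03Rik, rose by 1.64 and has a clone-like symbol.

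The lower genes included Hsp90aa1 and Hsph1 of the heat shock chaperone list and the cochaperone gene Ahsa1, which is on no list. Hsp90aa1 (chr12:111928815-111940938, minus strand, mm9), the inducible HSP90 chaperone, lay at 298 to 585 CPM in the low group with a median of 432, and at 232 to 372 CPM in the middle group with a median of 315. The groups overlapped, and at each of the 7 doses the gamma library was higher than the proton library. Within protons the low libraries were at 298, 388 and 401 CPM and the middle libraries at 292, 282, 292 and 232 CPM. Within gamma rays the low libraries were at 585, 488 and 464 CPM and the middle libraries at 365, 338, 342 and 372 CPM. Within each radiation type every middle library was thus below every low library, narrowly so after protons. The fall over both types was 0.72-fold (log2 -0.47 ± 0.08 SE, adjusted p = 0.03518), and it passed without Proton75 and Gamma100 (adjusted p = 0.04092) but not without Proton5, Proton10 or Gamma5. Ahsa1, the cochaperone that stimulates the ATPase of HSP90, fell by 0.29 on the log2 scale, and within each radiation type its middle libraries were again all below its low libraries. Its call was lost in 8 of the 14 fits that each left out 1 library.

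Across the heat shock chaperone list 2 of 13 genes fell and none rose, 11 of 13 lay below 0, and the median was -0.25, the same without Proton75 and Gamma100. Over all genes tested 0.167% were called lower, 55.6% lay above 0 and the median was 0.02. The second member of the list called was Hsph1, of the HSP110 family, with 158 to 302 CPM against 94.4 to 179 CPM (log2 -0.53 ± 0.12 SE, adjusted p = 0.09737). Without Proton75 and Gamma100 its call was lost (adjusted p = 0.1404), and Hspa8, the constitutive HSC70, passed instead (log2 -0.71, adjusted p = 0.07458). With all libraries Hspa8 had medians of 1131 and 851 CPM and an adjusted p of 0.1451. Hsp90ab1, the constitutive HSP90, had -0.24 ± 0.07 SE, Hspb1, the small chaperone HSP27, had -0.44 ± 0.16 SE, and Hspa5, the chaperone of the endoplasmic reticulum, had -0.32 ± 0.14 SE, none of them past the threshold. Stip1, which hands clients from HSP70 to HSP90, is on no list and was named after its values were seen. It was called lower at -0.45 ± 0.10 SE, with 110 to 225 CPM against 104 to 140 CPM, and lost its call without Proton75 and Gamma100 (adjusted p = 0.1465). The calls of Hsph1 and Stip1 were each lost in 11 of the 14 fits that left out 1 library. A heat shock element of 3 units (GAANNTTCNNGAA or TTCNNGAANNTTC, either strand) was found in the promoter windows of 3 of the 10 listed chaperone genes with a window, Hsph1, Hspe1 and Hspd1, and in 0.617% of those of all tested genes. The matches of Hspe1 and Hspd1 were reverse complements of each other, so they can be the same stretch counted for both genes. Neither gene was called. Among the lower genes with a window 1 of 17 held the element, Hsph1.

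Other lower genes had varied roles. Adam19, a membrane metalloprotease that sheds growth factors, had the smallest p among them. Its low libraries were at 71.4 to 120 CPM and its middle libraries at 45.2 to 70.8 CPM, a gap of less than 1 CPM between the groups (log2 -0.74 ± 0.13 SE, adjusted p = 0.02886). Smad3, the signal transducer of TGF-beta receptors, fell by 0.40, from a median of 51.4 to one of 39.8 CPM, as the only call in 20 TGF-beta pathway genes, whose median was -0.06. Fbxl22, an F-box protein of muscle, fell by 0.62 and Sipa1l2, a Rap GTPase activating protein, by 0.50. Tle3, a corepressor of the Groucho family, fell by 0.57 with overlapping groups. Dhrs3, which reduces retinal to retinol, fell by 0.59 with groups that did not overlap, at 224 to 328 CPM against 127 to 221 CPM. The largest fall by size was that of Dok7, an activator of the receptor kinase MuSK at the neuromuscular junction, at -1.45 ± 0.32 SE, but its lowest low library, at 1.47 CPM, was below every middle library. Inhbb, the activin beta B subunit, fell by 0.90 without overlap, from 13.04 to 27.1 CPM to 6.31 to 12.3 CPM. Single libraries decided most of the 22 calls. Without Gamma5 0 genes were called lower in edgeR (458 were lower at an unadjusted p under 0.05). Without Proton10, Gamma10, Proton5, Gamma75, Gamma100, Proton125 or Gamma125, each left out alone, between 3 and 6 were, without Gamma0, Proton50 or Gamma50 between 11 and 13, and without Proton0 50 were. The log2 differences of the 22 genes kept their sign in each of these 14 fits.

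In all, 38 genes (0.289% of those tested) had every middle library above every low library, and 14 (0.106%) had every middle library below. Of the 41 higher genes 31 were among the first, and of the 22 lower genes 5 were among the second. Since the calls rest on the same contrast, this is a description of how the libraries lie. Without Proton0 the 52 genes of both directions became 156, and without Gamma50 80.

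Within the middle doses the differences of the higher genes were larger at the higher doses, a description with no test. Relative to the low libraries of the same radiation type, the median log2 difference of the 41 higher genes, on the scale of log2(CPM + 0.5), was 0.56 at 50 cGy, 0.70 at 75 cGy, 0.78 at 100 cGy and 0.83 at 125 cGy, with 2 libraries per dose. For 36 of the 41 the mean of 100 and 125 cGy was above that of 50 and 75 cGy, by a median of 0.19, against 48.6% of all genes tested and a median of -0.004. The lower genes had no such order, with medians of -0.37, -0.51, -0.40 and -0.50, and 10 of 22 were higher at 100 and 125 cGy. The libraries outside the comparison, which share the low libraries as reference, are given beside these. The genes were called against those low libraries, which partly fixes the sign of the values. At 25 cGy the medians were 0.37 for the higher and -0.25 for the lower genes. At 150 and 200 cGy together they were 0.96 and -0.25, with the difference in GC bias of those 4 libraries noted above. Taken by dose, the lower genes had medians of -0.38 at 150 cGy and -0.15 at 200 cGy, and of 0.06 in the proton library at 200 cGy. Hsp90aa1 averaged 432 CPM in the 4 libraries at 150 and 200 cGy and 437 CPM in the low libraries.

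**Figure D4:**
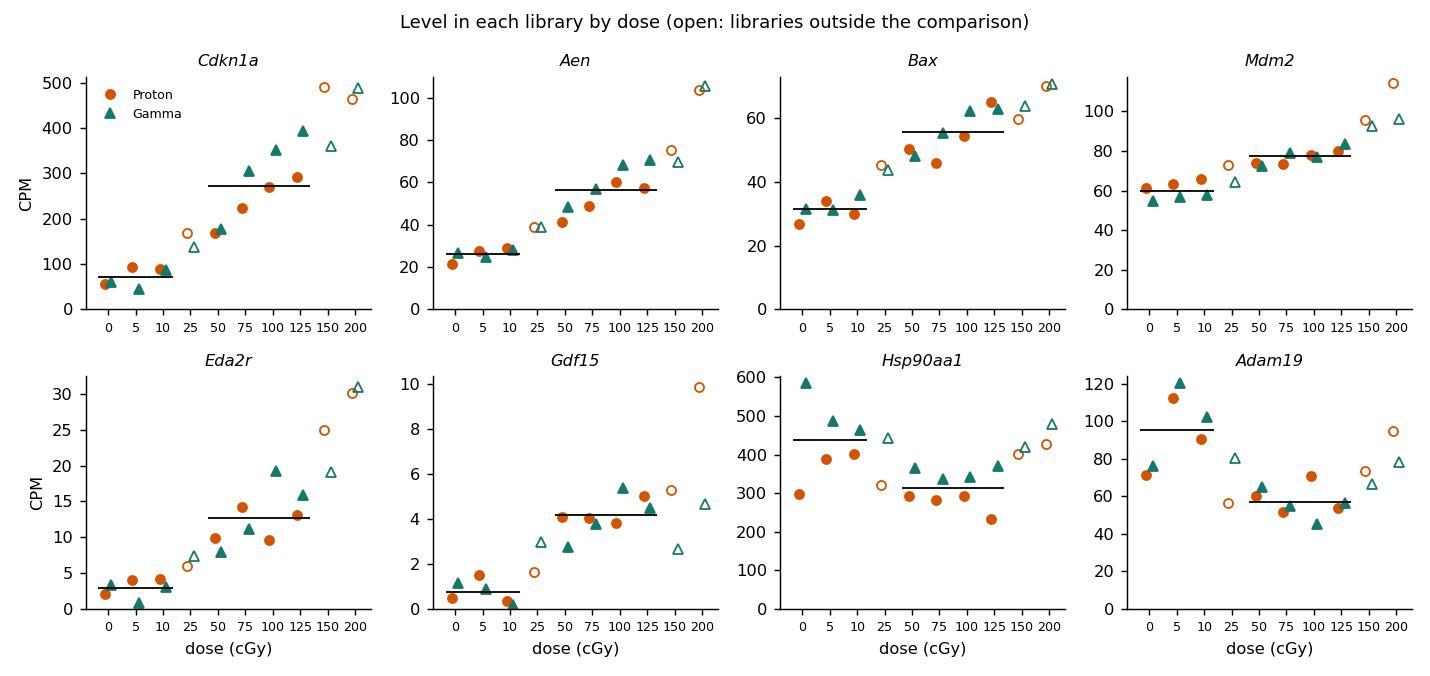
CPM (vertical axes, from 0) of 8 called genes against dose in cGy (horizontal axes, evenly spaced steps), circles for proton and triangles for gamma libraries, filled in the 14 libraries compared and open at 25, 150 and 200 cGy, with black lines at the mean of the low and of the middle group. Cdkn1a runs from 169 CPM at the lowest to 393 CPM at the highest of the middle libraries, all above the low libraries, and Hsp90aa1 is lower in the middle than in the low group within each radiation type.

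Protons and gamma rays were then taken by themselves, with 4 middle and 3 low libraries each, in a fit that shares 1 estimate of the spread. After gamma rays 17 genes passed (0.129% of those tested), 16 of them higher and Sipa1l2 lower. After protons 0 passed in edgeR, the smallest adjusted p being 0.164, and 689 genes (5.24%) were under an unadjusted p of 0.05. DESeq2 called 18 genes after protons. The gamma calls hung on single libraries, with 0 left in edgeR without Gamma0 (607 at an unadjusted p under 0.05), 1 without Gamma5, Gamma100 or Gamma125, 2 without Gamma75, 3 without Gamma10, 5 without Proton10, 9 without Proton100, 10 without Proton5 and 30 without Proton75. The 2 contrasts use separate mice, but each gene's spread is estimated over all 14 libraries. A gene called after gamma rays because of a small spread thus tends to a small p after protons too. The share over all genes is therefore no matched baseline, and the values are set side by side as a description. Of the 17 genes called after gamma rays, 16 had the same sign and an unadjusted p under 0.05 after protons, against 5.24% of all genes at that p. Their median log2 difference, sign included, was 0.94 after gamma rays and 0.84 after protons. The exception was Cttnbp2, with 1.54 after gamma rays and -0.01 after protons.

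All 41 higher genes and all 22 lower genes, called on both types together, had the same sign in each type, which the choice of these genes on the same libraries largely fixes. Across all genes the 2 sets of log2 differences had a Pearson correlation of 0.36 (n = 13149 genes, which share libraries and are not independent replicates). For 28 of the 41 higher genes the value was larger after gamma rays, against 45.9% of all genes tested, and for 17 of the 22 lower genes the fall was larger after gamma rays. At that share of 45.9%, most of all genes tested had the lower value after gamma rays, which is the direction counted for the lower genes. Among the 28 higher genes were Cdkn1a with 2.25 after gamma rays and 1.57 after protons, and Eda2r with 2.48 and 1.77. For Ccng1, at 0.94 and 0.92, and for Rps27l, at 0.63 and 0.63, the values were nearly equal. The test of the difference itself passed for 0 genes in edgeR and for 0 in DESeq2, with 224 of 13149 genes at an unadjusted p under 0.05 and with a median standard error of 0.23 on the log2 scale, so that differences of modest size could not be detected. The smallest unadjusted p was that of Sipa1l2, with -0.24 after protons and -0.76 after gamma rays (difference 0.52 ± 0.12 SE). Its low libraries differed between the types, at 24.3 to 25.9 CPM for protons and 32.1 to 36.1 CPM for gamma rays, and its middle libraries lay together at 20.2 to 22.8 CPM and, after gamma rays, at 22.0 CPM or less. Cttnbp2, a cortactin-binding protein, Erbb4, a neuregulin receptor, Slc20a1, a phosphate transporter, and Spsb1, an adaptor of ubiquitin ligases, followed, with differences of -1.56, -1.12, -0.46 and -0.42 and adjusted p-values that rounded to 1.

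**Figure D5:**
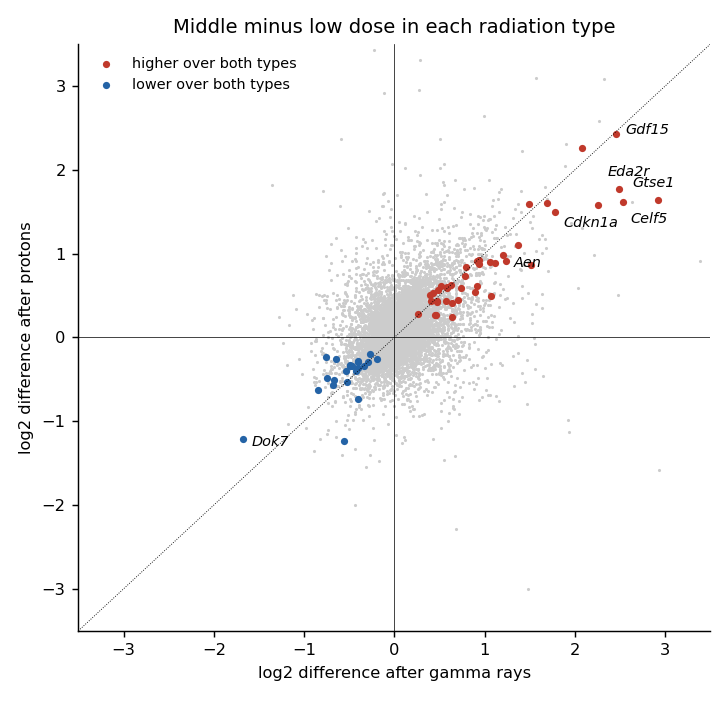
Log2 difference, middle minus low doses, after protons (vertical axis) against that after gamma rays (horizontal axis) for all genes tested, with the 41 genes higher over both types in red, the 22 lower genes in blue, the line of equal values dotted, and 43 genes beyond 3.5 on either axis left out. Every red point is above 0 on both axes and every blue point below 0 on both, and 28 of the 41 red points lie on the gamma side of the line.

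Genes of the vessel wall and of inflammation gave few calls or none. There were 0 among 17 smooth muscle contractile genes in edgeR (1 under an unadjusted p of 0.05), where Acta2 had -0.04 ± 0.15 SE and Myh11, the smooth muscle myosin, -0.08 ± 0.14 SE. There were 0 among 18 endothelial genes (0 under an unadjusted p of 0.05), whose platelet adhesion molecule Pecam1 varied from 235 to 605 CPM within the low group. Of these 18, 16 lay above 0, where 55.6% of all genes did. Their median was 0.26, and 0.03 without Proton75 and Gamma100. There were 0 calls among 19 interferon-stimulated genes (2 under an unadjusted p of 0.05), of which 18 lay above 0 with a median of 0.17, and that median was 0.06 without Proton75 and Gamma100. The adhesion and chemokine list, where Nfkbia was called, had 10 of 11 genes above 0. Its median was 0.31, and 0.17 without those 2 libraries. Proliferation genes had 0 calls in 13 and a median of 0.03 (0 under an unadjusted p of 0.05). Lists of other cell types had 0 calls but large medians that came with Proton75 and Gamma100, such as 0.91 for 16 white fat genes and 1.01 for 11 brown fat genes. Without these 2 libraries the medians were -0.37 and -0.28. T lymphocyte and B lymphocyte markers were mostly too scarce to test, with 15 of 16 and 13 of 15 under a mean count of 5.

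Without Proton75 and Gamma100, 33 genes were called higher and 12 lower, with 28 of the 41 and 7 of the 22 among them. The p53 targets called were 16 of 58 again, with 5 in cell cycle and checkpoint, 2 in feedback, 4 in apoptosis, 7 in metabolism and 0 in repair, and with 4 of the 44 outside the study's list. The heat shock chaperone list had 2 calls and the TGF-beta list 1, and the glucocorticoid and the adhesion and chemokine lists had 0. Each radiation type by itself gave 2 calls after protons and 15 after gamma rays, and 85 genes had groups without overlap. With the mean log2 level of the brown fat markers as a covariate in place of leaving libraries out, 58 genes were called higher and 77 lower, among them all 41 and all 22. In the fit without Proton75 and Gamma100 the sizes hardly moved. The median log2 difference went from 0.76 to 0.73 for the 41 and from -0.44 to -0.43 for the 22. In that fit 28 called genes lost their call. Those with the highest counts included Dhrs3, Hsph1, Hnrnpm, an RNA splicing factor, and Tmem65, a mitochondrial membrane protein. The 12 higher genes with the smallest p named here, Aen, Rps27l, Bax, Ei24, Ephx1, Ccng1, Slc19a2, Exoc4, Cdkn1a, Dcxr, Commd3 and Mdm2, all kept theirs. When the fit was offset by each library's trend on GC content and length, all 41 and 17 of the 22 were called.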

How the data were processed

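Aortas of 20 mice were sequenced as polyA-selected libraries. Base calling with CASAVA 1.8.1 and alignment to mm9 with STAR 2.5.2a are given in the submitters' processing notes. Per the study's methods reads were paired, stranded and 100 bases long, and PORT resampled them to 1 depth. The authors deposited whole-number counts per gene on the sense strand (21078 genes), and no further scaling was found. All identifiers matched GENCODE M1, whose mm9 coordinates are given. The 82 shared symbols were settled by the higher mean count.

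Libraries were grouped by labelled dose. Middle against low doses was fitted in edgeR 4.0.16 (R 4.3.3, TMM scaling, robust quasi-likelihood, radiation type as covariate) for genes whose counts averaged 5 or more in the 14 libraries, and called at the study's level of 0.1 after Benjamini-Hochberg adjustment. A fit with 4 groups gave each radiation type and their difference. Standard errors are the log2 difference over the root of the F statistic. CPM use TMM-scaled totals of the 14 libraries, and of all 20 for the other 6. With 1 mouse per dose and type, p-values measure the spread between doses as well as between mice. Between the 91 pairs of libraries the chi-square per gene was at least 3.45, so none was a copy of another.

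Named genes were the 12 higher and 12 lower with the smallest p and the 5 of each with the largest difference at a mean count of 20 or more without clone-like symbols (1 left out), called and abundant list members, the 5 with the smallest p between radiation types, and the 5 most abundant that lost their call without Proton75 and Gamma100. Members and lists were chosen with earlier results of these data known, and Dcxr was moved between p53 lists after its value was seen. Of the genes this rule names, 1 is not reported here. Promoter windows came from RefSeq (GRCm38.p6). On simulated counts with known changes in 200 of the 13149 genes, 46 of 100 changed by 0.5 and 67 of 100 changed by 1 on the log2 scale were called for this comparison, and 13 unchanged genes. The simulated libraries were independent draws from a common profile, without an effect of radiation type or a dose order within groups. They held no shift of many genes such as that of Proton75 and Gamma100, so these numbers hold for such counts only. The alternatives included DESeq2 1.42.0, sva 3.50.0, other filters, groupings and covariates, and each library left out. Intervals at the level of 3 counts cover counting error only. Lists without a call that the text does not describe are summarised with their medians at the end.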

Additional observations from a re-analysis of the deposited data

Results flagged for a closer look

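Within the low or the middle group, 1 library lay far from its fellows in 5 of the 154 groups tried over the called genes and marker sums. The measure was Dixon's ratio of the gap to the whole range, taken on log2(CPM + 0.5). For the genes, counts are printed. By chance alone about 1 in 20 unselected groups is flagged. Genes called on these same libraries were chosen partly for a small spread, so that share is no matched baseline. Among the 6 low libraries, Rps27l was lowest in Proton5 with 289 counts against 309 to 325 in the others (ratio 0.667), Inhbb was highest in Proton5 with 162 counts against 79 to 102 (ratio 0.651), and Agap1, an Arf GTPase activating protein, was lowest in Proton0 with 315 counts against 409 to 454 (ratio 0.698). Among the 8 middle libraries, Proton75 was highest in the striated muscle sum with 3313 CPM against 28.9 to 83.8 (ratio 0.777) and in the mesothelial sum with 116 CPM against 14.5 to 38.5 (ratio 0.533).

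For the called genes, the libraries that the comparison left out are set against the low libraries, which serve as reference in each case. These genes were called against the same low libraries, which partly fixes the sign, so the values are a description. The 41 higher genes had a median log2 difference of 0.372 at 25 cGy and 0.964 at 150 and 200 cGy, and 40 of 41 were on the higher side in each. The 22 lower genes had medians of -0.246 and -0.253, with 22 and 21 of 22 on the lower side.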

How the results depend on the processing

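No call of the 63 genes reversed its direction under the 30 alternatives, but the number of calls moved. The higher genes became 64 with 1 surrogate variable and 26 at an adjusted p of 0.05, and stayed within 1.5 times under the other planned changes apart from single libraries left out. The lower genes became 83 in DESeq2, 14 without TMM or with a filter of 1 count, 12 without Proton75 and Gamma100 or without the radiation covariate, 10 with 25 cGy added to the low and 7 added to the middle group, 84 with a surrogate variable, 77 with the brown fat score as covariate and 5 at 0.05. After protons the 0 calls became 18 in DESeq2, 4 with a filter of 1 count, 2 without Proton75 and Gamma100, 4 with all 20 libraries, 9 with dose per 100 cGy as a linear term, 6 with a surrogate variable and 17 with the brown fat score. After gamma rays the 17 became 36 in DESeq2, 9 and 0 with 25 cGy added to the low or middle group, 30 with linear dose, 35 with a surrogate variable, 32 with the brown fat score and 5 at 0.05. Genes without overlap, 52, became 85 without Proton75 and Gamma100, and 17 and 30 with 25 cGy added to the low or middle group. An alternative chosen after seeing the data, without Proton75, Gamma100 and Proton0 (the 3 libraries with the highest brown fat sums), gave 88 higher and 89 lower genes, 2 after protons and 233 without overlap, and called 38 of the 41 and 19 of the 22. The causes were not tested.

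With 1 library left out the ranges were 21 to 47 higher, 0 to 50 lower, 0 to 5 after protons, 0 to 30 after gamma rays, 55 to 156 without overlap and 13 to 22 list members called (20 with all). The difference between radiation types gave 0 in every alternative. Of the higher genes 20 and of the lower genes 0 kept their call with every library left out in turn. No paired analysis was possible because no dose occurs in both groups and replicate numbers only name libraries. Rare transcripts such as Ano3, Celf5 and Kifc1 are limited by the depth.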

Other observations

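Further gene groups, described by their counts and medians beside the all-gene median of 0.02, moved little at 4 hours. The collagen and elastic fibre genes had 0 calls in 19 (0 at an unadjusted p under 0.05) and a median log2 difference of -0.03, and the vascular tone genes 0 in 20 (2 at that p) and -0.06. The circadian clock genes had 0 calls in 18 and a median of -0.05, and the immediate early genes 0 in 24 and 0.00, with 1 and 4 at an unadjusted p under 0.05. Replication genes gave 0 calls in 17 and a median of -0.04 (1 at that p). Among 17 integrated stress response genes Sesn2 alone was called, and their median was 0.02. Antioxidant and NRF2 genes had 0 calls in 19 and 17 above 0, with a median of 0.14 that was -0.00 without Proton75 and Gamma100 (1 at that p). All these counts are from edgeR at an adjusted p of 0.1.

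The medians of immune and accessory cell lists moved with single libraries. MHC class II genes had a median of 0.41 in all 14 libraries and -0.35 without Proton75 and Gamma100, and macrophage genes 0.05 and -0.41. Erythroid genes had 0.82 and -0.67, neutrophil genes 0.19 and -0.14, immature thymocyte genes 0.77 and -0.56, mesothelial genes 2.47 and -0.27, and striated muscle genes 1.96 and 0.09. Without Gamma0, a low library, the medians were 1.92 for erythroid, 0.86 for neutrophil and 0.52 for macrophage genes. Fibroblast and adventitial genes had 0.01 and -0.09, and Schwann cell and nerve genes 0.10 and -0.09. None of these lists had a call in edgeR, and at an unadjusted p under 0.05 there were 2 striated muscle, 2 Schwann cell and 1 mesothelial gene.

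A total of 3 pairs of called genes start close to each other. Gdf15 and Homer3 on chromosome 8 were both higher, 347 kb apart. Rps27l and Fbxl22 on chromosome 9, 438 kb apart, and Kifc1 and Hnrnpm on chromosome 17, 229 kb apart, moved in opposite directions, the first of each pair being higher.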
